A study of Mus musculus with 32 samples.

Results

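Followed here in whole mouse lung are 9 genes known from fat cells: the adipokines Cfd, Adipoq, Retn and Lep, the fatty acid carrier Fabp4, the lipid droplet proteins Plin1 and Cidec, the enzyme Car3 and the brown fat uncoupler Ucp1. Not all are particular to fat cells, and which cells their values came from was not tested. These 9 were chosen by name from the 35715 gene names on the array, and 11 of its 55681 probes carry them, with 2 probes each for Retn and Cidec. Cfd and Car3 were selected on their low level in 85% O2 at P14 and on a high level in 1 control mouse, so their values in the P14 groups are given here as a description with no test, and the other 7 genes were added to them as known markers of the same cells. The agent under which Cfd and Car3 were picked is not recorded, so the tests of the other genes at P14 are not independent of that choice either.

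Adipocytes store triglyceride in a lipid droplet and secrete hormones. Plin1 coats the droplet and Cidec enlarges it. Fabp4 carries fatty acids in the cytosol, while adiponectin (Adipoq), adipsin (Cfd, also complement factor D), resistin (Retn) and leptin (Lep) are secreted. Car3, a carbonic anhydrase, is abundant in fat but also in skeletal muscle and liver, and Ucp1, which lets brown fat mitochondria release energy as heat, is the defining gene of brown and beige fat. The lung parenchyma itself has lipid-storing fibroblasts and lipid-handling macrophages, and fat tissue lies next to it in the chest.

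Lungs came from 32 wild-type C57Bl/6J mice of both sexes, 4 in each of 8 groups. Pups breathed 21% O2 (normoxia) or 85% O2 (hyperoxia, a model of bronchopulmonary dysplasia) from the first day of life, and received in addition a locked nucleic acid antagomiR that blocks the microRNA miR-34a (antimiR-34a) or a scrambled antagomiR as its control. By their labels they were killed at P5 or P14, while the protocol gives a harvest day a fraction of a day later for both ages. The label ages are used here. Lungs were flushed with PBS until white. Every mouse therefore received an injected oligonucleotide, and no untreated mouse was included. Mice are named below by age, gas (nox for 21% O2, hyx for 85% O2), agent (s for scrambled, t for antimiR-34a) and number, as in p14 noxs 1. Each array held 1 mouse, each slide held 1 age and 1 gas, and the 2 agents sat on different rows of every slide, so oxygen or age cannot be told apart from the slide, nor the agent from the row. Values are log2 levels, scaled to the 75th percentile of each array: 0 is that percentile, each step of 1 is a doubling, and levels of different genes are not compared because probes differ in brightness. Between 33616 and 40788 probes per array were well above background by the scanner's own call, and all 6 genes of a lung epithelium list were well above background in all 32 mice.

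Factors of the C/EBP family are known to drive many fat cell genes, so their promoters are shown where a C/EBP motif was found. RefSeq promoters (GRCm38.p6, 250 bases before to 50 after the start) were at hand for 7 of the 9 genes, in 8 windows. The motif TTGCNNAA, searched on both strands with a palindrome counted once, occurred 4 times in 3 of these 8 windows (Plin1, Cidec and Lep), and in 10.8% of all 32851 promoter windows of the same length. Below, each stretch reads 5′ to 3′ on the strand of its gene, and capitals mark the motif. No match overlapped another motif searched.
Lep, chr6:29060155-29060184: tggccggacagTTGCGCAAgtggcactggg
Plin1, chr7:79732816-79732845: tctgagaggcaTTGCCCAAgattccctgga
Plin1, chr7:79732945-79732974: ccacctctttaTTGCCTAAacatcccccat
Cidec, chr6:113434944-113434973: ggagggctctaTTGCTCAAgggcccatggg
The match in Lep began 55 bases before the start. Of the other motifs searched, the nuclear receptor motif AGGTCA was in the promoter of Ucp1 and in no other of the 7 genes, against 16.3% of all windows, and the TATA box TATAAA was in none, against 13.6%. A match is a run of letters and not a bound site, and 7 genes are too few to set against a background share.

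Adipocyte genes were highest in P14 lungs in 21% O2, and most of them were at or near background in P14 lungs in 85% O2. In the 8 mice of that age and gas, 8 of the 9 genes were well above background in every mouse, and Lep was in only p14 noxs 1 and p14 noxt 1. In the 8 P14 mice in 85% O2, 3 or 4 of the 9 were above background in 7 mice, and 7 were in p14 hyxt 4. Cfd and Car3 are part of these P14 counts although they were picked for a low level in 85% O2, so their part in them was set by the choice. At P5 the number was 5 to 7 per mouse in 21% O2 and 4 to 6 in 85% O2. In bulk tissue, fewer cells of a type and less RNA per cell cannot be told apart.

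**Figure D1:**
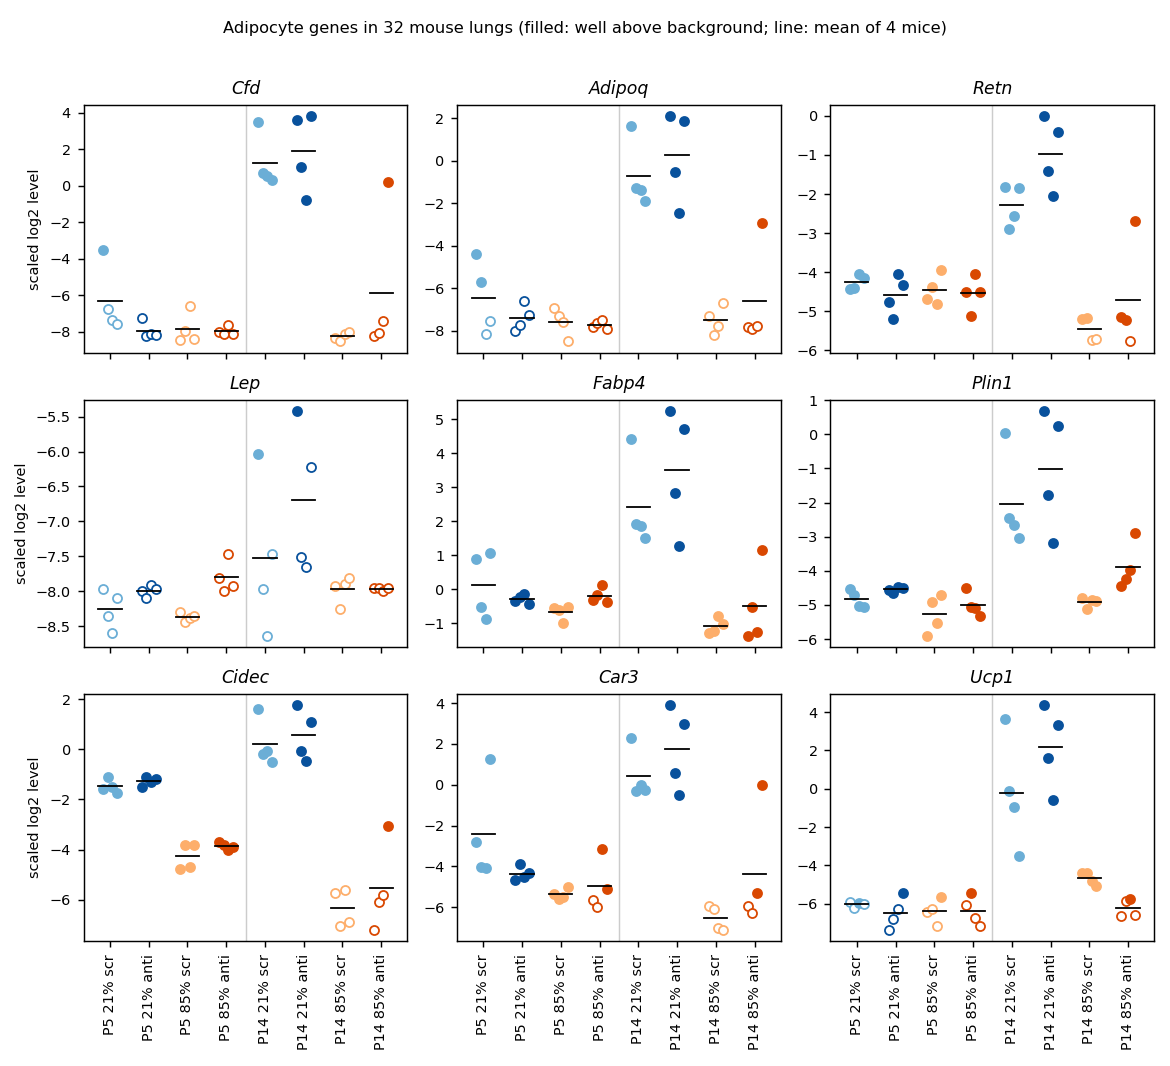
Scaled log2 level (y axis) of the 9 adipocyte genes in each of 32 mice, by age, oxygen and agent (x axis, scr for scrambled and anti for antimiR-34a); filled points were well above background, open points were not, and lines are means of 4 mice. Levels are high in P14 lungs in 21% O2, with 1 scrambled and 2 antimiR-34a mice on top, and p14 hyxt 4 is the raised point in P14 85% O2.

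Among the secreted products, Cfd (probe at chr10:79355302-79355361, mm9) was well above background in 10 of the 32 mice. At P14 in 21% O2 its level was 3.49, 0.68, 0.55 and 0.30 in scrambled mice 1 to 4, and 3.61, 1.02, -0.77 and 3.80 in antimiR-34a mice 1 to 4. In 85% O2 it was -8.04 to -8.52 in the 4 scrambled mice, all at background. The antimiR-34a mice in 85% O2 were at -8.21, -8.05 and -7.40 in mice 1 to 3, also at background, and at 0.19 in mouse 4. The scrambled groups did not overlap, with Cfd at least 164-fold lower in 85% O2, a bound because it compares the 21% O2 mean with the dimmest measurable level of each array rather than with background. The size depends on how background is treated: the difference was -9.51 as scaled here and -5.10 after normexp background correction. The antimiR-34a groups overlapped through p14 hyxt 4 and p14 noxt 3: their means differed by -7.78 (-4.62 after normexp), with mice 1 to 3 in 85% O2 at background.

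Adiponectin followed Cfd mouse by mouse. Adipoq (chr16:23157576-23157635, mm9) was 1.62, -1.26, -1.37 and -1.89 in scrambled P14 mice in 21% O2, and 2.09, -0.53, -2.43 and 1.89 in antimiR-34a mice. In 85% O2 it was at background in 7 mice, between -6.69 and -8.20, and -2.92 in p14 hyxt 4. Groups did not overlap with either agent. In scrambled mice the level was at least 41.6-fold lower in 85% O2, described without a test because Cfd and Car3 may have been picked on this contrast. In antimiR-34a mice it fell by 6.86 on the log2 scale (SE 1.21, limma adjusted p = 2.18e-04), by 3.54 after normexp. Without p14 hyxt 4, which leaves only background in 85% O2, the difference was -8.09. Adipoq was well above background in 1 of the 4 mice in 85% O2. Adipoq entered this test only through the groups in 21% O2, so its direction was set by the filter. The same holds below at P14 for Cidec and for Retn on its brighter probe, while the second Retn probe passed in both gases.

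Resistin, a hormone made by white fat in mice, moved less. Retn on its brighter probe (chr8:3659757-3659816, mm9) was -1.83, -2.88, -2.56 and -1.85 in scrambled P14 mice in 21% O2, -0.01, -1.40, -2.05 and -0.41 in antimiR-34a mice, and -5.18 to -5.74 in scrambled mice in 85% O2. In antimiR-34a mice in 85% O2 it was -5.14, -5.23, -5.77 and -2.68, so here too mouse 4 was the high one, yet below all 4 mice in 21% O2. It fell by 3.74 in 85% O2 with antimiR-34a (SE 0.58, adjusted p = 7.70e-05), and its second probe (chr8:3657312-3657371) fell by 2.48 (adjusted p = 0.00478), with overlap of the groups. Leptin was at background in 30 of 32 mice. Lep (chr6:29023234-29023293, mm9) was -6.04 in p14 noxs 1 and -5.42 in p14 noxt 1, the 2 mice where it was measured, and it entered no test, since it did not pass the filter, which asks for a level well above background in all 4 mice of at least 1 group.

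The intracellular genes came next. Fabp4 (chr3:10204452-10204511, mm9), which capillary endothelium and macrophages also make, was well above background in all 32 mice. It stood at 4.42, 1.92, 1.86 and 1.51 in scrambled P14 mice in 21% O2, at 5.25, 2.82, 1.28 and 4.71 in antimiR-34a mice, at -1.29 to -0.80 in scrambled mice in 85% O2, and at -1.37, -0.52, -1.27 and 1.15 in antimiR-34a mice in 85% O2. The 2 gases did not overlap with either agent. Scrambled mice differed by -3.51 (no test), and by -2.85 without p14 noxs 1, and with antimiR-34a Fabp4 fell by 4.02 in 85% O2 (SE 0.84, adjusted p = 8.06e-04). Lists of the other cells that make Fabp4 also differed between the gases at P14. The mean level of 8 capillary endothelium genes was 2.69 to 2.89 in 21% O2 and 2.17 to 2.44 in 85% O2, and that of 10 alveolar macrophage genes was 1.40 to 1.81 and 0.75 to 1.44, without overlap within either agent. Their members went both ways with antimiR-34a: 3 capillary genes were called higher and 3 lower in 85% O2, and 5 macrophage genes each way. Of all probes tested there, 65.6% were called in either direction and 37.8% lower. The median difference of the capillary list was -0.10, against -0.11 over all probes. Their part in the Fabp4 values was not tested.

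Plin1 (chr7:86866112-86866171, mm9) was also above background in every mouse. Its level was 0.05, -2.47, -2.66 and -3.05 in scrambled P14 mice in 21% O2, 0.69, -1.77, -3.18 and 0.24 in antimiR-34a mice, -4.81 to -5.11 in scrambled mice in 85% O2 and -4.44, -4.22, -3.98 and -2.91 in antimiR-34a mice in 85% O2. With antimiR-34a the gases overlapped, p14 hyxt 4 lying above p14 noxt 3. The fall of 2.88 (SE 0.79, adjusted p = 0.00529) was -1.74 (adjusted p = 0.0636) when p14 noxt 1, p14 noxt 4 and p14 hyxt 4 were left out, and the call was also lost by the methods' t-test (adjusted p = 0.0699).

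Cidec on its brighter probe (chr6:113374630-113374689, mm9) was 1.61, -0.19, -0.05 and -0.49 in scrambled P14 mice in 21% O2, and 1.77, -0.05, -0.47 and 1.10 in antimiR-34a mice. In 85% O2 it was at background in 7 mice, between -5.62 and -7.22, and -3.06 in p14 hyxt 4. There was no overlap. As scaled here, it was at least 67.0-fold lower in scrambled mice in 85% O2 (no test) and fell by 6.14 in antimiR-34a mice (SE 0.78, adjusted p = 1.37e-05). After normexp the scrambled difference went from -6.55 to -3.54, below that bound, and the antimiR-34a difference to -3.64. Its second probe (chr6:113378116-113378175), at background in 85% O2, was at least 14-fold lower there (adjusted p = 6.41e-06). Both probes passed the filter only through the groups in 21% O2.

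Car3 (chr3:14871781-14871840, mm9) was 2.29, -0.29, -0.04 and -0.25 in scrambled P14 mice in 21% O2 and 3.90, 0.58, -0.50 and 2.98 in antimiR-34a mice. In 85% O2 scrambled mice were at background, between -5.94 and -7.11, and antimiR-34a mice were at -5.95, -6.30, -5.29 and -0.03. As scaled here, Car3 was at least 88.2-fold lower in 85% O2 in scrambled mice, and the antimiR-34a means differed by -6.13, with p14 hyxt 4 overlapping the mice in 21% O2. After normexp the scrambled difference went from -6.96 to -3.65, below that bound, and the antimiR-34a difference to -4.05.

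Brown fat was represented by Ucp1 (chr8:85821788-85821847, mm9). Its level was 3.66, -0.11, -0.95 and -3.52 in scrambled P14 mice in 21% O2 and 4.37, 1.59, -0.56 and 3.32 in antimiR-34a mice. Among P14 mice in 21% O2, Ucp1 thus spread more within a group than any other of the 9 genes, over 7.19 in the scrambled mice. In 85% O2 it was -4.39, -4.40, -4.83 and -5.08 in scrambled mice, all well above background, and -6.65, -5.84, -5.75 and -6.61 in antimiR-34a mice, of which mouse 3 alone was. p14 hyxt 4, the highest of its group for 7 of the 9 genes, was at background for Ucp1. The scrambled groups differed by -4.44 (no test), by -3.15 without p14 noxs 1 and by -5.54 without p14 noxs 4, and with antimiR-34a Ucp1 fell by 8.39 in 85% O2 (SE 1.22, adjusted p = 4.38e-05), by 5.62 after normexp, a fall measured against mostly background values.

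Counted over the antimiR-34a mice at P14, all 6 testable genes fell in 85% O2. Of the 7 genes open to a test, Lep did not pass the filter, and Adipoq, Retn and Cidec passed only through the groups in 21% O2, where they are high. Fabp4 and Plin1 passed in every group, and Ucp1 also through the scrambled mice in 85% O2. Among all 38458 probes tested, limma called 65.6% in either direction and 37.8% lower in 85% O2. Without the filter the same 6 of 7 were called, Lep differing by -1.26 (adjusted p = 0.0563).

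**Figure D2:**
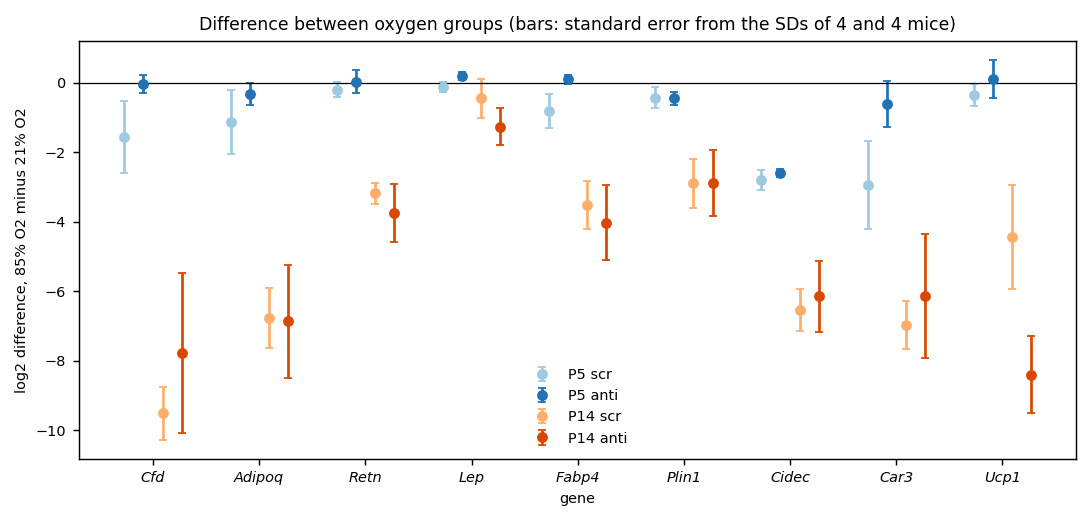
Difference in mean log2 level between 85% O2 and 21% O2 (y axis) for each of the 9 genes (x axis), at P5 and P14 with scrambled (scr) or antimiR-34a (anti); bars are standard errors from the SDs of 4 and 4 mice. P14 differences are below 0 for every gene and differ from P5 most for Cfd, Adipoq and Ucp1, while Cidec is lower in 85% O2 already at P5; differences involving groups at background depend on background noise.

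At P5 the clearest difference between the gases was in Cidec. It was -1.58, -1.11, -1.48 and -1.73 in scrambled mice in 21% O2, -4.76, -3.82, -4.68 and -3.82 in scrambled mice in 85% O2, -1.52, -1.10, -1.31 and -1.18 in antimiR-34a mice in 21% O2, and -3.69, -3.83, -4.01 and -3.90 in antimiR-34a mice in 85% O2. All 16 values were well above background and the gases lay far apart with both agents. Cidec fell by 2.79 in scrambled mice (SE 0.21, 6.94-fold, adjusted p = 2.35e-07) and by 2.58 in antimiR-34a mice (5.98-fold, adjusted p = 3.96e-07). The result rests on 1 probe, since the second Cidec probe was at background in most P5 mice and was not tested. Cfd and Adipoq were at background in most of the same mice, and which cells made Cidec at P5 was not tested.

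Car3 also fell in 85% O2 at P5 in scrambled mice, through a group that 1 mouse dominates. It was -2.80, -4.05, -4.06 and 1.26 in 21% O2 and -5.36, -5.60, -5.48 and -5.01 in 85% O2. The groups did not overlap (difference -2.95, SE 0.92, adjusted p = 0.0189), and the difference was -1.72 without p5 noxs 4 (adjusted p = 0.0203). The call was lost when only these 2 groups were fitted (adjusted p = 0.0547) and by the methods' t-test (adjusted p = 0.181). In p5 noxs 4 the mean of an 8-gene skeletal muscle list stood at 0.91, against -3.51 to -4.05 in the other mice of its group, with 8 of 8 muscle genes well above background. Over the 2 groups, 3 of 6 tested muscle genes and 7 of 8 heart genes also fell, with median differences of -2.07 and -1.70, where 26.4% of all probes were called lower. The part of these tissues in the Car3 value was not tested. With antimiR-34a, Car3 was -4.68, -3.89, -4.53 and -4.35 in 21% O2 and -5.63, -5.96, -3.15 and -5.11 in 85% O2, a difference of -0.60 that did not pass the test (adjusted p = 0.616). The high mouse here, p5 hyxt 3, also had Pck1, made in fat, liver and kidney, at -1.56 against -6.63 to -8.09 in its group, a gene picked out after its values were seen.

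In all, 2 of 5 testable genes fell at P5 in scrambled mice (Cidec and Car3) and 1 of 5 in antimiR-34a mice (Cidec). Over all 35984 probes the shares called were 43.9% in scrambled mice, 26.4% lower, and 46.6% in antimiR-34a mice, 29.5% lower. With 5 genes these counts were not tested against those shares. Retn, Plin1 and Fabp4 did not pass: their differences were -0.20, -0.43 and -0.81 in scrambled mice and 0.04, -0.44 and 0.10 in antimiR-34a mice. Cfd, Adipoq, Lep and Ucp1 entered no P5 test. Of these, Cfd was measured in p5 noxs 1 only (-3.50), and Adipoq in p5 noxs 1 (-4.37) and p5 noxs 2 (-5.69) only.

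The change with age was asked in each gas among antimiR-34a mice. In 21% O2, all 6 testable genes rose from P5 to P14, beside 29.8% of 39163 probes called higher at P14. Adipoq passed the filter only through P14 groups in 21% O2, where it is high, so its direction was set by the filter, and Ucp1, at background in 3 of 4 mice of each P5 group, passed only through P14 groups. Ucp1 rose by 8.66 (SE 0.95, adjusted p = 3.46e-08), Adipoq by 7.65 (at least 71.5-fold, adjusted p = 5.55e-07), Fabp4 by 3.81 (adjusted p = 2.62e-05), Retn by 3.61 (adjusted p = 4.31e-07), Plin1 by 3.54 (adjusted p = 1.91e-05) and Cidec by 1.86 (adjusted p = 0.00894). Cidec was above background in every P5 mouse on this probe, while its second probe, at background in the P5 group, was at least 11.3-fold higher at P14 (adjusted p = 2.63e-08) and passed the filter only through P14 groups in 21% O2. Without p14 noxt 1, p14 noxt 4 and p14 hyxt 4, Cidec rose by 1.02 only and missed the threshold (adjusted p = 0.0745). By the methods' t-test neither Cidec (adjusted p = 0.0600) nor Plin1 (adjusted p = 0.0532) was called. Cfd, described only, was at background in all 4 antimiR-34a mice at P5 and at least 226-fold higher at P14.

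In 85% O2 Cidec alone of the same 6 genes passed, and it was lower at P14, by -1.70 (SE 0.59, adjusted p = 0.0266), where 16.3% of all probes were called lower. Leaving out any of p5 hyxt 1, p14 hyxt 1, p14 hyxt 2 or p14 hyxt 3 ended that call (adjusted p up to 0.135), as did fitting only these 2 groups (adjusted p = 0.124). The second Cidec probe, at background in both groups, differed by 0.85 the other way. Plin1 was higher at P14 by 1.10 without overlap of the groups (adjusted p = 0.160, and 0.0395 when only these 2 groups were fitted). Fabp4 differed by -0.31 (adjusted p = 0.756).

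The difference between the 2 oxygen effects was tested directly. The oxygen effect of antimiR-34a mice was more negative at P14 than at P5 for all 6 testable genes, where 20.7% of all probes were called in that direction. Adipoq again was testable only through the high P14 groups in 21% O2, and Ucp1 only through P14 groups. At P5 with antimiR-34a Adipoq was at background in every mouse, and Ucp1 was well above it in 1 of 4 mice in each gas. The P5 effect of these genes is thus background against background. The gap was -8.51 for Ucp1 (SE 1.34, adjusted p = 1.95e-05), -6.55 for Adipoq, -4.12 for Fabp4, -3.77 for Retn, -3.56 for Cidec (adjusted p = 0.00130) and -2.44 for Plin1 (adjusted p = 0.0224). Plin1 lost its call without p14 noxt 1 (adjusted p = 0.0604) or without p14 noxt 4 (adjusted p = 0.061), and was -1.30 without these and p14 hyxt 4 (adjusted p = 0.152). For Cidec the oxygen effect was present at both ages and grew, from -2.58 to -6.14. This comparison shares its mice with those above, so the 3 sets of values are not independent.

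None of these genes was called between antimiR-34a and scrambled mice where a test was made. None of 5 genes was called at P5 in 21% O2 (0.136% of probes called), none of 5 at P5 in 85% O2 (0.0639%) and none of 6 at P14 in 85% O2 (2.66%), by limma at an adjusted p of 0.05, by the methods' t-test, or at an unadjusted p of 0.05. At P14 in 85% O2 Plin1 was 1.03 higher with antimiR-34a (SE 0.79, adjusted p = 0.560) and Ucp1 1.54 lower (difference -1.54, SE 1.22, adjusted p = 0.576), both without overlap of the groups. These SEs share the wide spread of the 21% O2 groups, and with only the compared groups fitted the adjusted p for Ucp1 was 0.0579. At P14 in 21% O2, given as a description since p14 noxs 1 was known to be high, antimiR-34a minus scrambled was 2.41 for Ucp1, 1.31 for Car3 and for Retn, 0.66 for Cfd and 0.36 for Cidec, and the groups overlapped for every gene.

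Mice of 1 group also differed among themselves. Among the 8 P14 mice in 21% O2, p14 noxs 1, p14 noxt 1 and p14 noxt 4 were the highest 3 for 8 of the 9 genes, and for Retn p14 noxt 2 took the place of p14 noxs 1. Cfd and Car3 are among these 8 genes and were picked knowing that p14 noxs 1 was high, so for them its rank was set by the choice. Both also enter the gene pairs below. p14 noxt 3 was the lowest antimiR-34a mouse for all 9. Pearson's r over these 8 mice ran from 0.67 (Retn with Ucp1) to 1.00 over the 36 gene pairs, with a median of 0.92, as a description of arrays that each share 1 scaling. Taken as deviations from the group means over all 32 mice, the median r was 0.68, and the lowest was again Retn with Ucp1 (0.27).

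**Figure D3:**
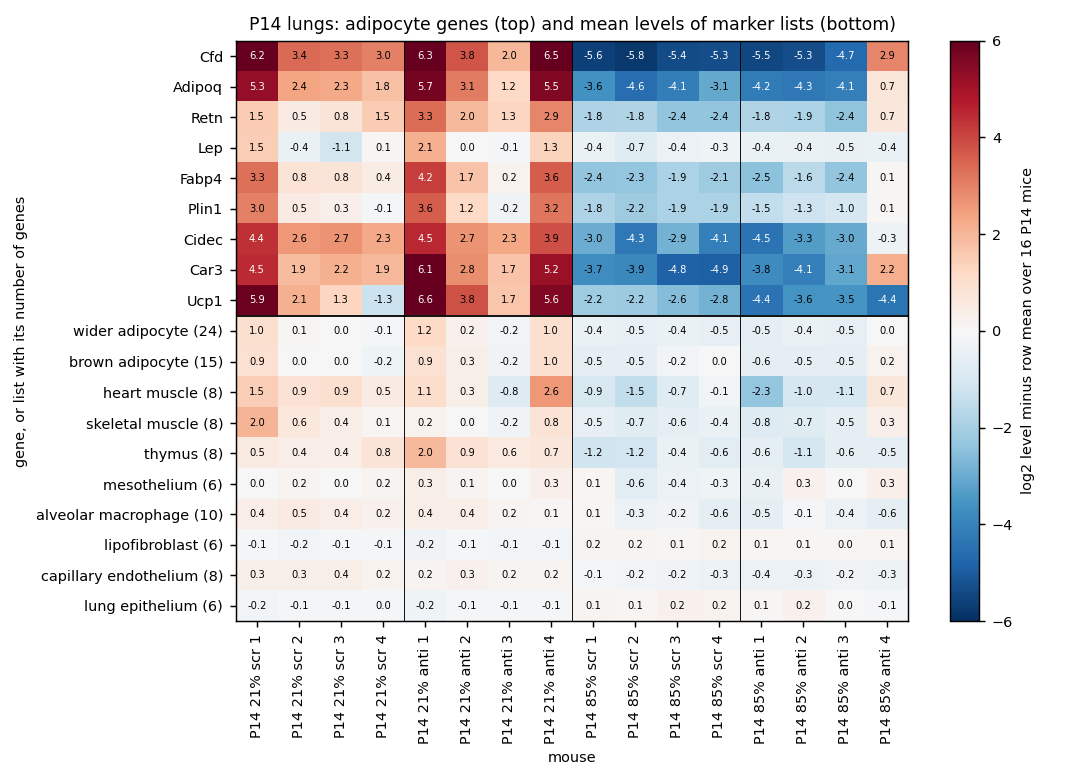
Log2 level minus the mean of the row over the 16 P14 mice (colour and printed value) for the 9 adipocyte genes (upper block) and for the mean levels of marker lists with their number of genes (lower block), with mice in columns. Mice p14 noxs 1, p14 noxt 1 and p14 noxt 4 stand out in the adipocyte genes and in the wider adipocyte and brown adipocyte lists, and p14 hyxt 4 is the highest of its group in all of the 9 genes but Lep and Ucp1.

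Wider lists of fat genes, which left out the 9, were read next. Of 24 further adipocyte genes (transporters, lipid synthesis and lipolysis), 9 fell and 2 rose in 85% O2 at P14 with antimiR-34a, with a median difference of -0.50 against -0.11 over all probes. A count of 9 in 24 is close to the 37.8% of all probes called lower. Called falls included those of Pck1, an enzyme of glyceride synthesis in fat (-6.99, adjusted p = 2.18e-04), the receptor Acvr1c (-4.29), Thrsp, a lipogenic factor (-3.78), and the glycerol channel Aqp7 (-1.37). In 85% O2 with antimiR-34a, Pck1 was well above background in 1 of 4 mice and Acvr1c in 2 of 4, and both entered this test only through the groups in 21% O2. By contrast Pparg, the master regulator of fat cells, which alveolar macrophages also express, differed by 0.01 (adjusted p = 0.985), and Scd1 by 0.16. In scrambled mice at P14 the median of this list was -0.26, against -0.06 over all probes. At P5, of 23 tested, 9 rose and 4 fell in 85% O2 with antimiR-34a (median 0.33, all probes -0.09). In scrambled mice 6 rose and 4 fell (median -0.05, all probes -0.07). The shares of all probes called at P5 were 46.6% with antimiR-34a and 43.9% in scrambled mice. From P5 to P14 in 21% O2, 18 of the 24 rose and 1 fell, where 29.8% of all probes were called higher, among them Thrsp (4.07). Pck1, at background in the P5 group and tested only through P14 groups in 21% O2, was at least 54.2-fold higher. Many of these genes are not particular to fat: 22 or more of the 24 were well above background in every P14 mouse in 85% O2.

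Of 15 brown fat genes, 14 were tested, and 6 fell and 3 rose in 85% O2 at P14 with antimiR-34a, where 37.8% of all probes were called lower and 65.6% in either direction, so the counts are near the background. Cidea, a droplet protein of brown fat, fell by 3.89 (adjusted p = 0.00657) and Cox8b, a respiratory chain subunit of brown fat and heart, by 3.08 (adjusted p = 0.00636). Cidea was 4.20 in p14 noxs 1, 4.31 in p14 noxt 1 and 3.89 in p14 noxt 4, and -1.55 to 1.85 in the other 5 mice in 21% O2. The 3 mice with the most Ucp1 were hence those with the most Cidea. In p14 hyxt 4 Cidea was -0.82, where its group had -1.44 to -1.92. The brown fat coactivator Ppargc1a went the other way and rose by 0.55 (adjusted p = 0.00701), and at P5 it rose by 1.04 in scrambled mice and by 1.16 in antimiR-34a mice.

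Markers of neighbouring tissues were read in the same mice. The mean of the 9 genes used here holds Cfd and Car3, which were picked knowing that p14 noxs 1 was high. Over all 32 mice, deviations of the 9 genes' mean level from the group means correlated with those of the wider adipocyte list (r = 0.93), the brown list (0.89) and an 8-gene heart muscle list (0.70), less with skeletal muscle (0.41) and thymus (0.29), while r was near 0 for lipofibroblast (-0.04), capillary endothelium (-0.02) and alveolar macrophage genes (0.02). It was 0.15 for mesothelium and -0.45 for lung epithelium. Over the levels of the 8 P14 mice in 21% O2 alone, r was 0.59 for thymus, 0.58 for mesothelium and -0.76 for lung epithelium. The heart list was highest in p14 noxt 4 (4.61), p14 noxs 1 (3.46), p5 noxs 1 (3.44) and p5 noxs 4 (3.28), ahead of p14 noxt 1 (3.07), and p14 hyxt 4 (2.67) led its group, where the others had -0.32 to 1.02. All 8 heart genes were well above background in every mouse. The summed linear level of the heart list, 1 being an array's 75th percentile, was 49.7 to 303.7 in p14 noxt, 108.2 to 188.6 in p14 noxs, 36.1 to 86.0 in p14 hyxs and 24.6 to 121.7 in p14 hyxt.

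Thymus genes were highest in p14 noxt 1 (-1.75, others of its group -2.84 to -3.14), with 7 or 8 of 8 genes above background per P14 mouse in 21% O2, and 4 or 5 in 85% O2. Their defining genes Rag2 and Ptcra were at background in all 8 P14 mice in 85% O2. The summed thymus level was 2.96 to 5.85 in p14 noxt, 3.24 to 3.85 in p14 noxs, 2.30 to 3.42 in p14 hyxs and 2.27 to 3.01 in p14 hyxt. Skeletal muscle summed to 2.29 to 4.53 in p14 noxs, 1.87 to 2.58 in p14 noxt, 1.45 to 1.95 in p14 hyxs and 1.20 to 2.44 in p14 hyxt, with its gene Myh4 at background in all P14 mice but 1. The part of heart, thymus and muscle tissue in the adipocyte values was not tested.

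**Figure D4:**
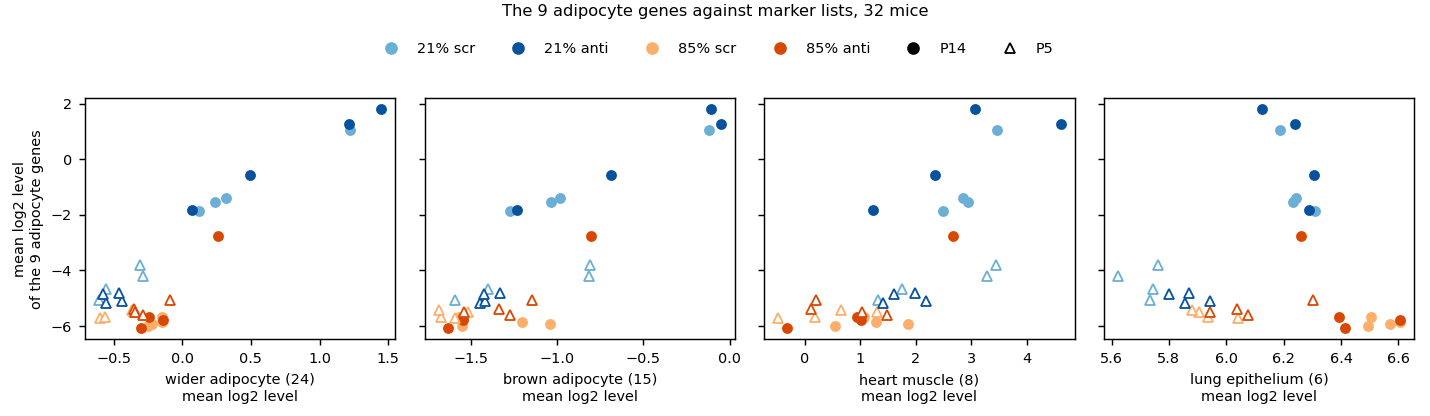
Mean log2 level of the 9 adipocyte genes (y axis) against the mean log2 level of 4 marker lists (x axes, number of genes in brackets) in 32 mice; colours give gas and agent, circles P14 and triangles P5. Mice in 21% O2 at P14 rise along the fat lists and p14 noxt 4 lies far right for heart muscle, at 4.61. Lung epithelium lies between 5.62 and 6.61. Each panel has its own x scale.

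Other genes on the array that ran most like these were sought among 17019 genes, by Pearson's r over 32 mice. Like the level of Cfd were Nrn1 (0.95), Clca1 (0.94) and Tesc (0.93), followed by Igip, Rasl12, Sh3bp5, Ptpra, Ston1, Kcns3 and Synb (0.90 to 0.92). Cfd was picked on its P14 levels, so a match to it is a match to the contrast between groups on which it was chosen. A link of these genes to fat cells was not tested. Like the deviations of the 9 genes' mean from its group means were Prkar2b (0.92), Plin5 (0.91), Acsl1 (0.90), Acadm (0.88) and Slc2a4 (0.87), followed by Ephx2, Gpd1, Acvr1c, Poln and Pparg (0.84 to 0.86). The 2 sets had no gene in common.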

How the data were processed

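RNA of 32 lungs was hybridised to 1-colour Agilent arrays. Per the labels, the authors scanned each array and extracted spot intensities with Agilent Feature Extraction 10.7.3.1, which subtracts background. They also deposited a table of log2 values, which correlated with the scanner's scaled values at 0.997 or higher on each array. Probe positions are those of the array design (mm9). Here, log2 of the deposited processed intensity was scaled by subtracting each array's 75th percentile over spots that were neither controls nor outliers. Spots of 1 probe were averaged. No probe value was saturated. A gene was read on its brightest probe, except in the search for genes of like pattern, which took the probe with the highest correlation.

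Probes entered a test where the scanner called them well above background in every mouse of some group of that fit. limma 3.58.1 in R 4.3.3 fitted 1 mean per group over the 16 arrays of an age, or over all 32 for comparisons between ages, with Benjamini-Hochberg adjustment over all probes tested and a threshold of 0.05. The fit was tested on simulated data. The number of arrays, 4 per group, limits precision, and p-values measure the spread between mice, whose litters and cages are not given in the sources used here. Where a gene was not above background on any array of a group, the fold is a bound ("at least"), taken against the lowest signal among probes well above background on each array, or the gene's own value if higher.

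The genes and all marker lists were chosen with earlier results of these data known. The text names the 9 genes, up to 4 called genes with the greatest change per fat list and comparison, list levels of other tissues, and the 10 genes nearest in pattern. Pparg and Scd1 were named in addition, after their values were seen. The rule by which Cfd and Car3 were picked does not say in which arm, so both were left out of every test that involves P14, a narrower count than first planned. Equal replicate numbers did not pair mice: correlations of same-numbered mice ran from -0.31 to 0.53. Promoters came from RefSeq (GRCm38.p6). Protein sequences and a genome were not used here. Alternatives were normexp background correction (offset 50), quantile normalization, no filter, the methods' Welch test with Benjamini-Hochberg adjustment, a fit of the compared groups alone, a replicate block, the authors' values leaving out each array, and, chosen after seeing the data, leaving out p14 noxt 1, p14 noxt 4 and p14 hyxt 4 together.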

Additional observations from a re-analysis of the deposited data

Results flagged for a closer look

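In groups of 4 mice, a mouse was singled out when its gap to the nearest of the others, divided by the range of the group, was above Dixon's critical value for groups of 4. This held in 9 of 72 groups examined (9 genes in 8 groups). Chance gives about 1 in 20 for 1 gene in 1 group. The 9 genes were read in the same mice and run together, so the 72 are not independent and the count is not set against that rate. Cfd and Car3 were picked knowing their P14 values and p14 noxs 1, so that rate says nothing about their values in the P14 groups. In p14 noxs 1, Cfd was 3.49 (0.30 to 0.68 in the others of its group), Car3 2.29 (-0.29 to -0.04) and Fabp4 4.42 (1.51 to 1.92). In p14 hyxt 4, Cfd was 0.19 (-8.21 to -7.40), Car3 -0.030 (-6.30 to -5.29) and Adipoq -2.92 (-7.91 to -7.76). The remaining 3 were small: Fabp4 was -0.99 in p5 hyxs 3 (-0.61 to -0.54), and Cfd at -7.25 in p5 noxt 1 and Lep at -8.00 in p14 hyxt 3 were both below the scanner's threshold for signal.

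Between ages, the oxygen effect with antimiR-34a differed by a test of the difference itself (P14 effect minus P5 effect) by -6.55 for Adipoq, -3.77 for Retn, -2.44 for Plin1, -3.56 for Cidec, -4.12 for Fabp4 and -8.51 for Ucp1. Adipoq was at background in all of these P5 mice and Ucp1 in most, so for them no P5 effect could be measured. Both were testable only through P14 groups.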

How the results depend on the processing

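Of 1229 recomputed values of 8 genes (all but Lep), 1177 were counted as unchanged. Tested values among them kept their direction and side of the threshold. Where no test was made, values moved by less than the spread between mice, though their sign could change (Car3 for age in 85% O2, -0.88 to 1.21). The size of the move was not checked for Cfd and Car3 in the difference between oxygen effects, nor for second probes in untested comparisons. For antimiR-34a mice, 5 or 6 genes were called for oxygen at P14, 4 to 7 for age in 21% O2 and 5 to 7 for the difference between oxygen effects. At P5 the count of 2 in scrambled mice became 1 by the methods' t-test and 1 when only the compared groups were fitted, as Car3 dropped out, and it ranged from 2 to 3 when single mice were left out, while the count with antimiR-34a ranged from 1 to 2, with 2 without p5 hyxt 1. The antimiR-34a count at P5 in 85% O2 became 1 with no filter (Lep, at background on all 8 arrays, difference 0.57, adjusted p = 0.0195). The count of 1 for age in 85% O2 became 0 with normexp, 0 by the methods' t-test and 0 to 1 when single mice were left out. With only the compared groups fitted Plin1 took the place of Cidec in that count. The methods' t-test could not be fitted for the difference between oxygen effects. The replicate block gave 2, 1 and 6 called genes for oxygen (P5 scrambled, P5 antimiR-34a, P14 antimiR-34a), and it changed no count. Among called results, 1 changed sign: Cidec for age in 85% O2, 0.85 on its second probe. The others were not called. Retn for oxygen at P5 became 0.074 by quantile normalization, 0.074 in the authors' values and 0.061 on its second probe in scrambled mice. With antimiR-34a it was -0.28 on that probe, and ranged from -0.17 to 0.23 without single mice, where Fabp4 ranged from -0.0027 to 0.163. For antimiR-34a at P5, Retn was 0.25 on the second probe in 21% O2, and in 85% O2 it was 0.069 with normexp and -0.25 to 0.11 without single mice, where Car3 ranged from -0.21 to 0.73. At P14 in 85% O2 Adipoq ranged from -0.35 to 1.31 and Cidec from -0.060 to 1.32, lowest without p14 hyxt 4. For age in 85% O2, Retn was 0.14 with normexp, 0.81 on the second probe and -0.84 to 0.19 without single mice, while Adipoq ranged from -0.13 to 1.53 and Ucp1 from -0.11 to 0.45. The causes were not tested. Normexp brought the scrambled P14 differences to -5.10 (Cfd), -3.65 (Car3), -2.91 (Adipoq), -3.54 (Cidec) and -1.27 (Retn), and leaving out p14 noxs 1 brought them to -8.76 (Cfd), -6.34 (Car3), -5.98 (Adipoq) and -2.19 (Plin1). For oxygen at P14 with antimiR-34a, values were -4.41 (Retn) and -6.97 (Cidec) without p14 hyxt 4, -3.61 (Plin1), -4.76 (Fabp4), -7.76 (Adipoq) and -9.31 (Ucp1) without p14 noxt 3, and -6.25 (Adipoq) and -7.67 (Ucp1) without p14 noxt 1, all still called. Normexp brought these to -3.54 (Adipoq), -2.12 (Retn), -2.05 (Plin1), -3.64 (Cidec) and -5.62 (Ucp1), age in 21% O2 to 3.95 (Adipoq), 2.26 (Retn), 2.51 (Plin1) and 5.70 (Ucp1), and the difference between oxygen effects to -3.40 (Adipoq), -2.12 (Retn), -1.91 (Cidec) and -5.61 (Ucp1), all still called. Without p14 noxt 1, p14 noxt 4 and p14 hyxt 4, age in 21% O2 was 2.07 (Plin1) and 2.34 (Fabp4). Leaving out p14 noxt 1, p14 noxt 3 or p14 hyxt 4 moved age in 21% O2 to 7.03 to 8.54 (Adipoq), 7.93 to 9.57 (Ucp1), 4.26 (Plin1) and 4.55 (Fabp4), age in 85% O2 to -2.52 (Cidec), and the difference between oxygen effects to -7.78 to -5.94 (Adipoq), -9.42 to -7.78 (Ucp1), -4.45 (Retn), -4.39 (Cidec), -4.86 (Fabp4) and -3.16 (Plin1). Quantile normalization moved the median of all probes for oxygen at P14 with antimiR-34a from -0.11 to 0.08. Signal over background limits Cfd, Adipoq and Lep in 85% O2 and at P5, Ucp1 at P5 and with antimiR-34a in 85% O2, and Cidec, Car3 and Retn in 85% O2 at P14, where a difference between dim groups is background.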
